A study of Mus musculus with 4 samples.

Results

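DNA methylation in the brain of a Tet1 KO mouse embryo whose mother ate excess folic acid (30 ppm, FA30) was compared with that of a Tet1 KO embryo on the control diet (3 ppm, FA3). The comparison uses 2 of the 4 whole-genome bisulfite sequencing (WGBS) libraries of the series, chosen by their genotype and diet labels and not by any measured value. The other 2 libraries, WT at 30 ppm and WT at 3 ppm, are given beside them as the same diet contrast in embryos with TET1. TET1 is a dioxygenase that oxidises 5-methylcytosine at CpG sites and keeps many CpG-rich promoters and developmental regions free of methylation. Folate carries the 1-carbon units that remethylate homocysteine to methionine and so feed S-adenosylmethionine, the methyl donor of DNA methyltransferases. Both are linked to closure of the neural tube, which forms the brain and spinal cord.

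All 4 libraries came from single E11.5 male embryos of the 129S6.Cg-Tet1tm1Koh line, each from the whole brain above the otic vesicle. The dams were heterozygous for the KO allele and all diets contained 1% succinyl sulfathiazole, an antibiotic that limits folate made by gut bacteria. In the KO allele an inserted cassette interrupts Tet1 at its first coding ATG, and the study describes a short Tet1 transcript from a downstream start that is still made in KO brain. Both KO embryos are listed by the study with a neural tube defect. Each group is 1 embryo, so there is no replicate error, and diet, litter and embryo cannot be told apart. A test on the reads compares these 2 libraries and not the diets.

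The Tet1 locus was examined first, since the genotype labels refer to it. Of 1210 CpGs in Tet1 (chr10:62804570-62908996, minus strand, mm10), 3 were listed in neither KO library and had 10 to 12 reads in each WT library. The reverse, listed only in the KO libraries, held for 2. No listed CpG carried under 2 reads, so an unlisted CpG is not shown to be unread. Over all autosomes 20452 CpGs were listed only in the WT libraries, so such a gap is not particular to Tet1 and cannot by itself check the labels. The 3 Tet1 CpGs lie in an exon within the first bases of the coding sequence, at 62880007, 62880001 and 62879996. The start codon is at chr10:62880012-62880014. The sequence below runs from that start codon into the coding exon, on the minus strand, with CpGs in capitals; it is shown because these CpGs are the ones missing from both KO libraries.

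Tet1 coding start, chr10:62879956-62880014: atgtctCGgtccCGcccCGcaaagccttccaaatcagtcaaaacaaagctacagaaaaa

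The promoter window of Tet1, 1 kb on each side of its outermost annotated start (chr10:62908996), was methylated alike in all 4 libraries. Its levels were 91.3% (KO FA30), 92.7% (KO FA3), 91.8% (WT FA30) and 94.2% (WT FA3). That start lies upstream of the coding start shown above. Other Tet1 starts, among them the downstream start described by the study, were not measured, so the levels do not describe them. Promoters of the neural transcription factor genes Sox1, Sox2 and Otx2 were nearly unmethylated, at 2.11%, 0% and 6.96% in KO FA30 and 2.76%, 0.669% and 5.20% in KO FA3. Median promoter levels of blood, liver, heart and muscle, and epidermis markers were 75.0%, 91.8%, 70.8% and 84.5% in KO FA30 and 75.8%, 91.3%, 73.9% and 86.0% in KO FA3. Methylation gives no transcript level, so these values describe the tissue only in part. Bisulfite conversion also does not separate 5-methylcytosine from 5-hydroxymethylcytosine, and "methylation level" below means the percentage of reads that stayed unconverted.

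The KO FA30 library was the shallowest and the KO FA3 library the deepest. Autosomal CpGs listed in each library carried 13.2 reads on average in KO FA30, 21.2 in KO FA3, 14.3 in WT FA30 and 16.2 in WT FA3. At least 5 reads in both KO libraries were found at 16269035 autosomal CpGs, 79.8% of those in the reference, and these enter each comparison of the KO pair below unless another set is named. Mitochondrial CpGs, which are nearly free of methylation, were read as methylated in 0.914% (KO FA30) and 0.927% (KO FA3) of reads, so the unconverted background differed little. Intervals given below are Wilson 95% intervals for a level and 95% intervals for a difference. Reads are summed over the CpGs of a region, and a DNA fragment that covers neighbouring CpGs counts at each of them. The intervals and the p-values below treat these counts as independent, so they are likely too narrow even for counting error. They also leave out any difference between embryos of a group.

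A pair of chromosome segments stood apart between the KO libraries and held many of the tiles called below. Among 12046653 CpGs with at least 10 reads in both KO libraries, 239 were at 90% or more in KO FA30 and at 10% or less in KO FA3, and 236 of them lay in chr2:66000001-71000000. In the reverse direction there were 111 such CpGs, 106 of them in the same 5 Mb. Between the WT libraries the corresponding counts over all autosomes were 4 and 5. In chr10:66000001-70000000, which is near Tet1 on chromosome 10, 284 of 27812 CpGs (1.02%) were at 35 to 65% in KO FA30 and at 90% or more in KO FA3, against 0.299% of CpGs on all autosomes. A C-to-T base difference between embryos reads the same as a loss of methylation in bisulfite data, so the 2 cannot be told apart in these segments, and the calls by both tests in the KO pair are given below with and without them.

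**Figure D1:**
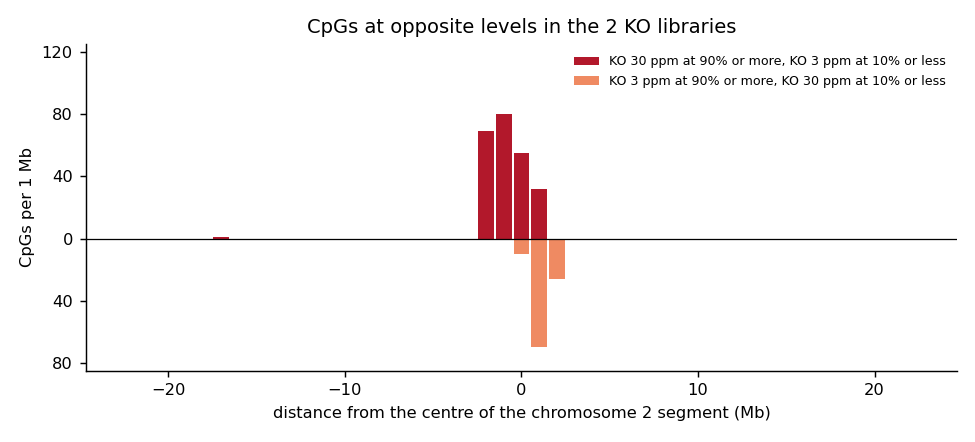
CpGs per 1 Mb on chromosome 2 (y axis) that were at 90% or more in one KO library and at 10% or less in the other, by distance in Mb from the centre of the chromosome 2 segment (x axis). Bars above 0 show CpGs high in KO FA30 and bars below 0 CpGs high in KO FA3; 236 of the 239 and 106 of the 111 fall within the 5 Mb segment.

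Across the genome the KO FA30 brain was slightly more methylated than the KO FA3 brain. The mean CpG level was 82.1% in KO FA30 and 81.4% in KO FA3, a difference of 0.651 percentage points ("points" below). It was higher in KO FA30 on 19 of 19 autosomes, by 0.568 to 0.716 points, and on the X chromosome, at 85.7% against 84.9%. In the WT pair the same contrast pointed the other way, at 80.7% in FA30 and 81.4% in FA3 (-0.647 points), with WT FA30 lower on 19 of 19 autosomes. Chromosomes of 1 embryo are not replicates, and the difference between the genotypes was not tested.

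The difference was spread over the KO genome. Of 2393 windows of 1 Mb, 2385 (99.7%) were higher in KO FA30, with a median of 0.710 points and a 5th to 95th percentile of 0.321 to 1.13. The 3 windows with the largest difference were all in the chromosome 2 segment, at 67, 66 and 68 Mb, with 3.81, 2.75 and 1.82 points. In the WT pair 13 of 2393 windows were higher at FA30, with a median of -0.686 points.

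The KO difference was largest in CpG-poor sequence and near 0 in the most CpG-dense sequence. CpGs in 1 kb tiles with 1 to 2 tested CpGs were 0.987 points higher in KO FA30, those in tiles of 6 to 10 were 0.718 points higher, and those in tiles of 21 to 40 were 0.322 points higher. In tiles with over 40 CpGs both KO libraries stood at 19.5%, a difference of 0.0366 points. Promoters of protein-coding genes, taken as 1 kb on each side of the start, were at 30.1% in KO FA30 and 29.9% in KO FA3 (0.175 points). Gene bodies outside promoters were at 84.8% and 84.3%, sequence outside genes at 83.4% and 82.6%, and repeats at 86.4% and 85.6%. Among these classes the difference was largest outside genes (0.768 points) and in repeats (0.773 points).

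Grouped by their level in the WT libraries, CpGs of intermediate methylation differed most within the KO pair. CpGs at 10 to 30% in WT were at 34.5% in KO FA30 and 33.0% in KO FA3 (1.52 points), and those at 30 to 50% in WT were at 55.5% and 54.1% (1.47 points). CpGs at 90 to 100% in WT differed by 0.599 points, and the 746961 CpGs at 0 to 10% in WT were at 4.88% and 4.74%, 0.140 points apart. These CpGs that WT left nearly unmethylated were thus nearly unmethylated in KO at both diets.

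**Figure D2:**
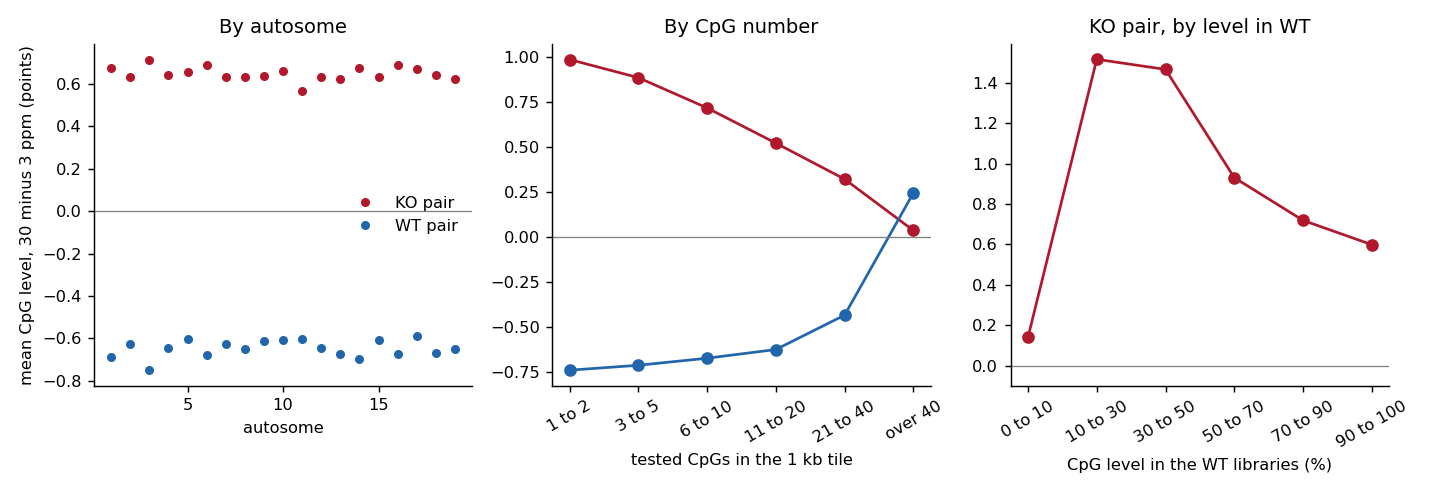
Difference in mean CpG level, 30 minus 3 ppm, in percentage points (y axis), by autosome, by the number of tested CpGs in the 1 kb tile, and for the KO pair by CpG level in the WT libraries. KO points lie between 0.568 and 0.716 on every autosome and WT points between -0.749 and -0.588; each point is a mean over CpGs of 1 library pair, with no replicate error.

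Promoter methylation differed at few genes between the 2 KO libraries. Methylated and unmethylated reads were summed over each promoter and compared with a two-sided Fisher's exact test, with Benjamini-Hochberg adjustment over 29374 promoters of coding and noncoding genes. Calls needed both an adjusted p under 0.05 and 10 points or more between the libraries. This gave 163 promoters higher in KO FA30 (0.555% of those tested) and 223 lower (0.759%). In summed reads a promoter also moves when the 2 libraries read its high and low CpGs in different proportions, so each CpG was also compared with itself, in a Mantel-Haenszel test and difference stratified by CpG ("CpG-matched"). On summed reads losses outnumbered gains, but this order turned to 123 gains and 54 losses when the deeper library was thinned to the overall depth of the other. It also turned with no minimum of reads per CpG (307 and 256) and over CpGs read in all 4 libraries (161 and 136). The order held at 10 reads per CpG (33 and 52) and with 2.5 kb on each side (109 and 178). It also held with test statistics scaled to their robust spread (6 and 10) and at 20 points (3 and 9). The CpG-matched test called 55 promoters higher (0.187%) and 31 lower (0.106%). Both tests together called 36 higher (0.123%) and 24 lower (0.0817%), and these 60 are described as having risen or fallen.

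The gap between the 2 tests was wide. The 163 promoters higher on summed reads had a median difference of 12.8 points on summed reads and 6.85 points CpG-matched. For the 223 lower promoters the medians were -12.7 and -3.67 points. At Zfp282, which encodes a zinc finger protein, summed reads gave 28.4% against 48.1% while the CpG-matched difference was 0.454 points. Over all promoters the median CpG-matched difference was 0.331 points, and 5% of promoters lay below -4.98 and 5% above 5.96. In the WT pair both tests called 17 promoters higher (0.058%) and 26 lower (0.0887%) of 29312.

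Of the 60 promoters, 34 belonged to protein-coding genes, 20 that rose (0.0994% of 20122 coding promoters) and 14 that fell (0.0696%). The 36 promoters that rose went from a median of 45.2% in KO FA3 to 60.1% in KO FA30, and stood at 45% and 46.7% in WT FA3 and WT FA30. The 24 that fell went from 68.9% to 53.9% and stood at 53.7% and 53.0% in WT. At the median, promoters that rose thus had their WT level in KO FA3 and promoters that fell had it in KO FA30, but single promoters named below departed from this, among them Ch25h, Galnt18 and Gal. Of the 60, 1 lay in the 2 segments, Zfp365 on chromosome 10.

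The coding promoters that rose belonged to genes of different kinds. H2-T23, a nonclassical MHC class I molecule, had 29.2% in KO FA30 (interval 24.2 to 34.8) and 12.1% in KO FA3 (9.37 to 15.5), with 8.16% and 12% in WT FA30 and WT FA3. The CpG-matched difference over its 36 CpGs was 17.8 points (12.8 to 22.8), with an adjusted p of 1.08e-08 in the Mantel-Haenszel test and 2.95e-05 in Fisher's test. Its summed-read call was lost at 10 reads per CpG (16.8 points, Fisher adjusted p 0.0542) and with 2.5 kb on each side (8.18 points). It belongs to a multigene family whose members share sequence, so some reads could come from a near-identical copy and its values are uncertain. Zfp26, a zinc finger gene, had 26.9% (23.1 to 31.1) in KO FA30 and 11.1% (8.87 to 13.9) in KO FA3, against 12% and 8.93% in WT. Its matched difference was 17.1 points (13.2 to 20.9, Mantel-Haenszel adjusted p 2.8e-14). Ch25h, the enzyme that makes 25-hydroxycholesterol, had 34.2% (30.8 to 37.8) and 18.1% (15.9 to 20.5), and both WT libraries were under these at 4.51% and 4.69%. Its matched difference over 71 CpGs was 15.1 points (11.4 to 18.8, Mantel-Haenszel adjusted p 8.02e-12).

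Other promoters that rose were read less deeply or moved less. Sp7, the osteoblast transcription factor osterix, had 60.0% in KO FA30 and 18.6% in KO FA3 but over 4 CpGs and 25 and 59 reads, with a matched difference of 42.3 points and a wide interval of 20.2 to 64.4. Fgf10, a fibroblast growth factor, had 51.8% in KO FA30 and 38.3% in KO FA3, with 33.1% in WT FA30 and 39.6% in WT FA3. Galnt18, a glycosyltransferase, had 61.1% and 49.3% in KO while WT stood at 14.2% and 21.4%. Mlc1, an astrocyte membrane protein, had 51.6% and 34.9%, and Ryr3, a calcium release channel, 32.7% and 19.4%. Gdf3, a TGF-beta family ligand, had 73.1% and 62.6%. The remaining coding promoters that rose were those of Snurf and Gm38393, which share 1 window at the imprinted Snrpn locus (66.7% and 51.8%), March6, Zfp951, Synpo, Tctex1d1, Cnpy1, Usp16, Pla2g1b, Lpo and Spata32, with matched differences of 10.2 (Spata32) to 15 points (Snurf).

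The coding promoters that fell were led by Cldn4, a tight junction claudin. Cldn4 had 20.5% in KO FA30 and 37.3% in KO FA3, with 23.1% and 27.4% in WT FA30 and WT FA3. Its matched difference over 34 CpGs was -20.4 points (-28.0 to -12.9, Mantel-Haenszel adjusted p 0.000185). Sec14l4, of the SEC14-like lipid-binding family, had 52.4% and 69.2% in KO and 56.5% and 54.0% in WT, with a matched difference of -16.6 points (-23.0 to -10.2, adjusted p 0.000488). In both genes the KO FA3 library was the one that stood above the other three libraries. Gal, the neuropeptide galanin, had 36.1% and 53.5%, but WT also had 49.0% in FA30 and 61.5% in FA3. The sterol transporters Abcg4 (15.8% and 34.8%) and Abcg8 (46.4% and 59.7%) both fell. Rassf4, of the RAS-association domain family, had 24.8% and 36.6%, and Ccdc182 58.1% and 70.1%. The others were Ccdc141, Ctf2, Mug1, Tmem223, Zfp365, Mybpc1 and Olfr976, with matched differences of -15.1 (Ccdc141) to -10.0 points (Olfr976).

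Among coding promoters with at least 5 CpGs and 50 reads in each KO library, which leaves out Sp7, the 10 with the largest gain and the 10 with the largest loss on summed reads were mostly not called when CpGs were matched. Only H2-T23 and Pla2g1b of these 20 were called by both tests. Among the gains, Gm20521 had 45.5% and 25% (matched 10.5 points), the apoptosis regulator Bcl2l2 42.3% and 22.7% (9.11 points), and the olfactory receptor Olfr491 89.9% and 71.7% (17.8 points). The windows of Gm20521 (chr14:54882441-54884441) and Bcl2l2 (chr14:54882377-54884377) overlap almost wholly, so their values rest on mostly the same reads. NAD kinase, Nadk, had 68.8% and 51.2% (8.53 points), and Pla2g1b, a secreted phospholipase A2, 80.9% and 63.7% (11 points). Pmepa1, Slc38a7, Gm20715 and Syn2 completed the gains, and their matched differences were 7.37, 7.13, 3.68 and 0.806 points. Among the losses, the receptor tyrosine kinase Axl had 50.9% and 81.4% (-20.4 points matched) and the G-protein regulator Rgs11 32.9% and 58.9% (-21.6 points). The mitophagy kinase Pink1 had 37.2% and 61.2% with a matched difference of -4.97 points. The rest were Zfp316, BC051142, Plbd2, Olfr1386, Vmn2r101, Zfp282 and Sys1, with matched differences of -9.25, -15.2, -7.30, -18.9, -10.7, 0.454 and -0.390 points.

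**Figure D3:**
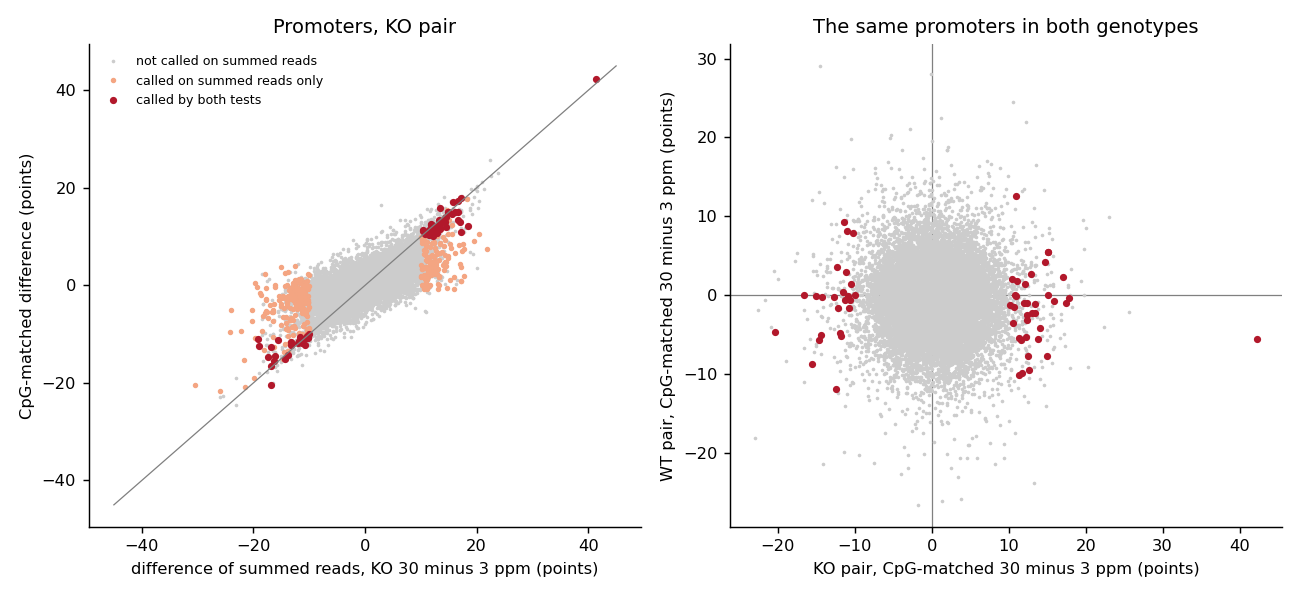
Left, the promoter difference of summed reads (x axis) against the CpG-matched difference (y axis), KO 30 minus 3 ppm in percentage points, each point a promoter, with the 60 called by both tests in dark red and the line of equality in grey. Right, those promoters' CpG-matched difference in the KO pair (x axis) and in the WT pair (y axis). A WT difference below 0 was found at 26 of the 36 that rose and 15 of the 24 that fell. The median WT difference over all promoters was also below 0, at -0.358 points.

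For 4 of the promoters named above, the 300 bases with the greatest summed CpG difference are printed from the reference genome (GRCm38.p6, mm10), on the gene's strand with CpGs in capitals, to show where the reads changed. None holds an annotated UTR base, and the stretches of Zfp26 and Cbln1 are described without their letters.

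H2-T23, chr17:36032026-36032325, minus strand: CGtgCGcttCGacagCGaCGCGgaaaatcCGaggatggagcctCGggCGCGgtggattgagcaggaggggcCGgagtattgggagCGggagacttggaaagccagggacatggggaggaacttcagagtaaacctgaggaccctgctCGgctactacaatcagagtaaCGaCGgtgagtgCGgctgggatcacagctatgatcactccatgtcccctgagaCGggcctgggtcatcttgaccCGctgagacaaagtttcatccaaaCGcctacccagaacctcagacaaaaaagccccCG

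Ch25h, chr19:34474286-34474585, minus strand: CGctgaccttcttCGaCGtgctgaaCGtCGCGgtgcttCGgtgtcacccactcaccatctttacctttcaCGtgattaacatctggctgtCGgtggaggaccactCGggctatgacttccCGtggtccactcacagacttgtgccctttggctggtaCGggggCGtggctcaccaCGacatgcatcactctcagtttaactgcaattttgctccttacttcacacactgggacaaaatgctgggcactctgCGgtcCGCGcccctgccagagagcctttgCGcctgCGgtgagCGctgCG

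Cldn4, chr5:134946133-134946432, minus strand: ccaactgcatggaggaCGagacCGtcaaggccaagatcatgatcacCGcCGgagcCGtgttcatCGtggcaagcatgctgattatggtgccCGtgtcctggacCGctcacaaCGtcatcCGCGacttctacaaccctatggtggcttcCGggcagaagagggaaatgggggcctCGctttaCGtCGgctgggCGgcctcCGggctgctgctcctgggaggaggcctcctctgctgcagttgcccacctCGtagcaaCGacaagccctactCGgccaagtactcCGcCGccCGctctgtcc

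Sec14l4, chr11:4031934-4032233, plus strand: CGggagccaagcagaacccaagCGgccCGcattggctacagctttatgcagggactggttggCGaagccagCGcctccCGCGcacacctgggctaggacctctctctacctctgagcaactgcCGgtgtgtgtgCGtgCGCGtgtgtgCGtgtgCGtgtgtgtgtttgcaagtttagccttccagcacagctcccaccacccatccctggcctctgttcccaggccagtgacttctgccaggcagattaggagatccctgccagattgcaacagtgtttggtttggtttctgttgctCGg

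In the H2-T23 stretch, which begins 530 bases after the gene start and holds 173 coding bases, the level was 30.2% in KO FA30 and 2.89% in KO FA3. WT FA30 stood at 2.78% and WT FA3 at 4.89%, and 20 of 20 CpGs were higher in KO FA30. In KO FA30 single CpGs ran from 14.3% to 50.0%, and in KO FA3 from 0 to 13.3%, so the CpG ranges of the 2 libraries did not overlap in this stretch, which was chosen for its difference. The Ch25h stretch lies wholly in its coding sequence, and had 47.1% in KO FA30, 29.3% in KO FA3, 8.41% in WT FA30 and 8.88% in WT FA3, with 18 of 21 CpGs higher in KO FA30. The Zfp26 stretch (chr9:20459448-20459747, minus strand) had 25.2% in KO FA30 against 1.93% in KO FA3, 1.30% in WT FA30 and 1.35% in WT FA3.

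At the 2 losses the order of the libraries was different. The Cldn4 stretch is coding sequence of its single-exon gene, with 15.5% in KO FA30, 41.3% in KO FA3, 22.2% in WT FA30 and 28.1% in WT FA3, and 1 of 17 tested CpGs was higher in KO FA30. The Sec14l4 stretch is intronic, with 32.0% in KO FA30, 60.5% in KO FA3, 27.5% in WT FA30 and 32.4% in WT FA3, and 0 of 14 CpGs were higher in KO FA30. At H2-T23 and Zfp26 the KO FA30 library was the high one, at Sec14l4 it was KO FA3, and at Ch25h both KO libraries were above both WT libraries. Each value comes from 1 embryo.

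**Figure D4:**
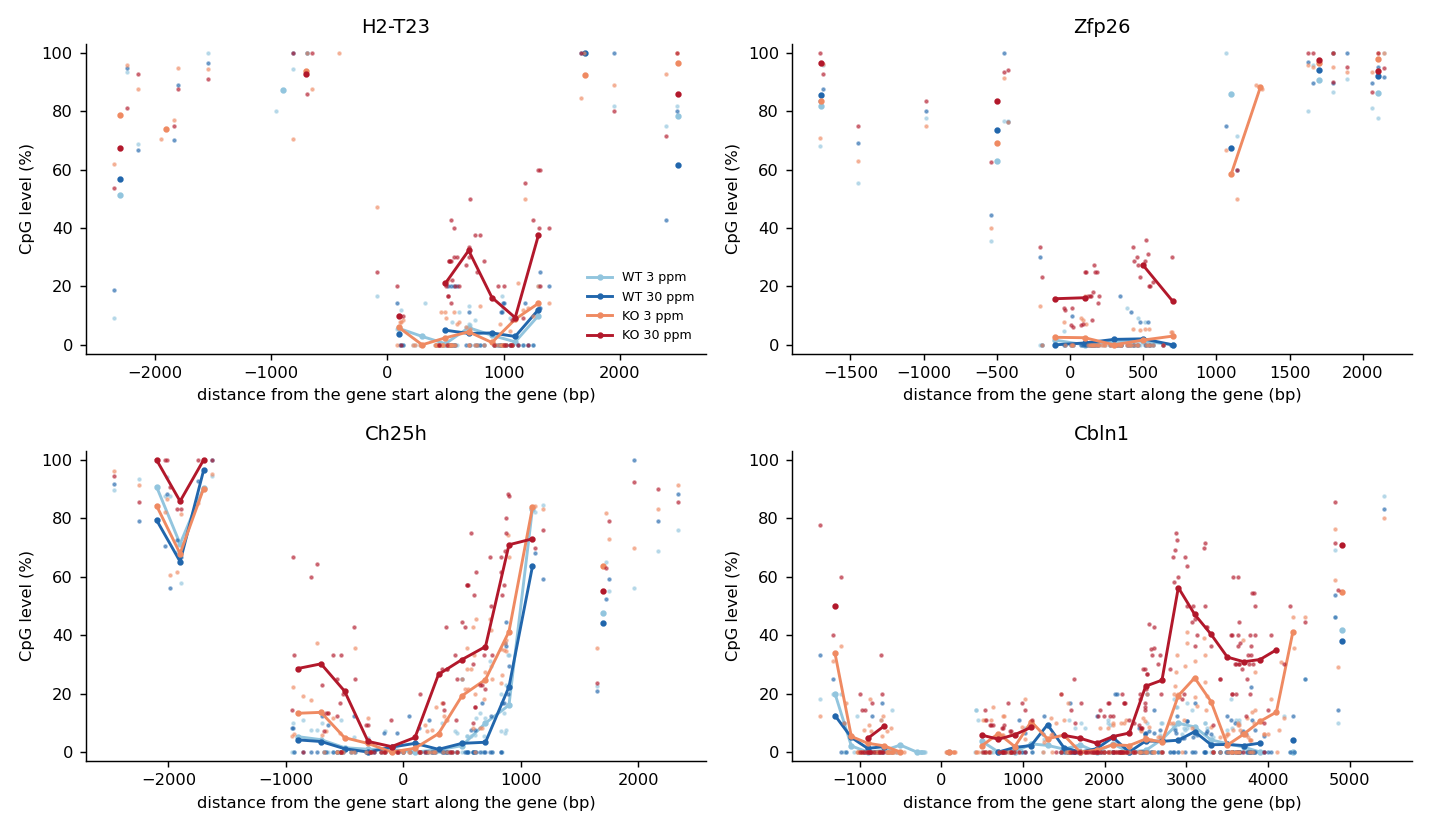
CpG level in percent (y axis) by distance in bases from the gene start along the gene (x axis) at H2-T23, Zfp26, Ch25h and Cbln1. Each point is a CpG with at least 5 reads and each line the mean in 200-base steps, in the KO FA30, KO FA3, WT FA30 and WT FA3 libraries. KO FA30 lies above the other libraries over part of H2-T23, Zfp26, Ch25h and Cbln1, and at Ch25h KO FA3 also lies above both WT libraries.

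Over whole gene bodies the KO FA30 brain was 0.543 points higher at the median gene, with 5% of genes below -2.32 points and 5% above 3.62, and few genes were called. On summed reads, 59 of 29509 gene bodies were called higher in KO FA30 (0.2%) and 74 lower (0.251%). This order turned with the deeper library thinned in this way (73 and 33), at 10 reads per CpG (27 and 23) and with no read minimum (121 and 85). It also turned over CpGs read in all 4 libraries (64 and 42) and at 20 points (2 and 0). The order held with test statistics scaled to their robust spread (2 and 17). The CpG-matched test called 28 higher (0.0949%) and 9 lower (0.0305%). Both tests called 22 higher (0.0746%) and 8 lower (0.0271%), and in the WT pair 15 (0.0509%) and 19 (0.0644%). None of the 30 lay in the 2 segments. The one with the most reads in total was Cbln1, the synapse organiser cerebellin 1 (chr8:87468405-87472609). Its 158 CpGs stood at 21.8% over 1472 reads in KO FA30 and at 7.51% over 2423 reads in KO FA3, with 3.24% and 2.45% in WT FA30 and WT FA3. The matched difference was 15.3 points (13.2 to 17.4, Mantel-Haenszel adjusted p 3.36e-43), and Fisher's test gave an adjusted p of 4.45e-33.

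The Cbln1 difference covered 3 neighbouring tiles and stopped before the gene start. Along chromosome 8 the tile from 87468001 had 32.7% in KO FA30 and 9.11% in KO FA3, the tile from 87469001 had 43.1% and 15%, and the tile from 87470001 had 13.3% and 2.61%. The tile from 87471001, nearer the start of this minus-strand gene, had 5.02% and 5.37%. WT libraries stayed at 0.855 to 5.37% in the first 3 tiles. The 300 bases with the greatest difference, chr8:87468766-87469065 in the last exon, had 35.0% in KO FA30, 6.72% in KO FA3, 2.69% in WT FA30 and 1.86% in WT FA3, with 29 of 30 CpGs higher in KO FA30.

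Other gene bodies named by size of difference behaved less uniformly between the tests. Nt5c, a cytosolic nucleotidase, rose from 33.0% in KO FA3 to 52.1% in KO FA30 (matched 16.7 points, Mantel-Haenszel adjusted p 0.000302), with WT at 18.5% and 16.7%. Prr23a1 rose from 64.2% to 82.5% (matched 18.3 points), and Ch25h over its body from 32.1% to 47.0% (15.6 points). Tmem223 fell from 73.6% to 56.5% (-16.7 points, Mantel-Haenszel adjusted p 5.41e-05). The ribosomal protein gene Rpl37a had 48.9% in KO FA30 and 34.0% in KO FA3 but a matched difference of 8.43 points, and as ribosomal protein genes have many processed copies its reads are uncertain. Isyna1, which makes inositol 3-phosphate, had 61.1% and 79.9% on summed reads but a matched difference of -1.15 points. Arhgdia, Zfp511 and Ndufaf3 were likewise called lower on summed reads alone, with matched differences of -5.54, -1.63 and -1.20 points. The other coding bodies called by both tests were higher at H2-T23, Gpr31b, Guca2b, Sprr3, Gm10065 and Gm6370 and lower at Cldn4, Ccdc182, Pcdhb13 and Gm8024. Ch25h, H2-T23, Cldn4, Ccdc182 and Tmem223 were also called as promoters. These are short genes whose bodies share reads with their promoter windows, so the calls are not separate.

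In 1 kb tiles with at least 3 CpGs, gains outnumbered losses in the KO pair, except when test statistics were scaled to their robust spread (135 and 146). On summed reads 961 of 1928073 tiles were higher in KO FA30 (0.0498%) and 624 lower (0.0324%). Both tests called 612 higher (0.0317%) and 460 lower (0.0239%), and in the WT pair 99 higher (0.00518%) and 542 lower (0.0284%). The chromosome 2 segment held 108 of the 612 gains and 40 of the 460 losses in 4309 tiles, and the chromosome 10 segment held 22 losses and 0 gains in 3658 tiles. Outside them 504 of these tiles rose (0.0262%) and 398 fell (0.0207%), or 455 and 349 with the adjustment redone over the remaining tiles. Of the 1072 called tiles, 27 had a neighbour called in the same direction.

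The share of tiles called rose with the number of CpGs, as the number of reads per tile does. Among tiles of 3 to 5 CpGs 0.00977% were called higher and 0.00637% lower by both tests, and among tiles of 6 to 10 CpGs 0.0197% and 0.0141%. Among tiles of 11 to 20 CpGs the shares were 0.0689% and 0.0576%, among those of 21 to 40 CpGs 0.203% and 0.134%, and among those of over 40 CpGs 0.288% and 0.16%. The 504 tiles that rose outside the segments went from a median of 55.2% in KO FA3 to 76.9% in KO FA30, with WT at 61.4% in FA3 and 57.2% in FA30. The 398 that fell went from 90.3% to 72.6%, with WT at 83.1% and 82.9%. Of all 612 gains, 3.92% lay in promoters, 10.6% in exons, 39.7% in introns and 45.8% between genes. The shares for the 460 losses were 3.91%, 12.8%, 42.8% and 40.4%, and for every 400th tile tested they were 2.88%, 9.62%, 34.0% and 53.5%.

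The tiles with the largest gains lay near genes of different kinds. A tile in an intron of Slc15a2, a peptide transporter (chr16:36769001-36770000), had 88.5% in KO FA30 and 49.0% in KO FA3, with 57.6% in WT FA30 and 81.8% in WT FA3. A tile in an intron of Kcnq3, a potassium channel subunit (chr15:66239001-66240000), had 50.7% and 11.6%, with 19.4% and 24.1% in WT. An intergenic tile near Gm12830 (chr4:114728001-114729000) had 87.8% and 54.0%, and one near Aen, an apoptosis-enhancing nuclease (chr7:78881001-78882000), had 56.8% and 24.8%. The remaining tile, near Nostrin, had 90.3% and 57.8% and lies in the chromosome 2 segment.

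Of the 5 tiles with the largest losses, 3 lay in the segments. A tile in an intron of Col23a1, a membrane collagen (chr11:51542001-51543000), had 52.9% in KO FA30 and 82.5% in KO FA3, with 57% and 66.7% in WT. An intergenic tile near Gas1, a co-receptor of Sonic hedgehog (chr13:60226001-60227000), had 52.1% and 81.0%, with 74.1% and 79.8% in WT. In the segments, a tile near the Wnt target Sp5 had 58.3% and 89.6%, an intron of Lrp2, an endocytic receptor that takes up folate, 65.9% and 94.0%, and an exon of the hindbrain factor Egr2 28.9% and 57%. At Egr2 the WT libraries stood at 22.9% and 19.2%.

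The diet difference of the KO pair was set against that of the WT pair at each of 29096 promoters that had enough reads in all 4 libraries. With 1 embryo per group this compares the reads of 4 embryos and does not test whether a diet effect differs between genotypes. A Wald test on the difference of log odds ratios called 391 promoters at an adjusted p under 0.05 (1.34%), 237 with the higher diet difference in the KO pair and 154 with the lower. With no read minimum the order turned, to 376 and 433. The CpG-matched version called 151 (0.519%), and both called 88 (0.302%). Of the 88, 63 were higher in KO and 25 lower. In 60 of the 63 the KO difference was above 0 and the WT difference below 0, and in all 25 of the others it was the reverse. The 88 were selected for a difference between the pairs, which by itself favours opposite signs. Some of the WT differences were small, as at H2-T23 and Ch25h below, so these counts do not show opposite diet responses. The medians over all promoters were 0.390 points in the KO pair and -0.397 in the WT pair. Repeated sequences read at over 5 times the mean depth made up 7 of the 88 (Sfi1, Gm12735, Gm42418, AY036118, Gm10801, Gm10800 and Gm10718).

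Among the 88 were both genes that moved in KO and genes that moved mainly in WT. H2-T23, over the 22 CpGs read in all 4 libraries, had a matched difference of 20.5 points in KO and -0.683 in WT, so that the pairs differed by 21.2 points (SE 3.52, Benjamini-Hochberg adjusted matched p 5.25e-06). Ch25h had 15.1 points in KO and -0.29 in WT, a difference of 15.4 (SE 2.17, adjusted p 7.21e-09). Cnpy1, a regulator of FGF signalling, had 11.4 and -9.20 points, and Fgf10 12.6 and -7.70 points. Sec14l4 had -18.0 in KO and 0.100 in WT. The paternally expressed imprinted genes Sgce, Nnat, Peg13 and Peg10 had smaller KO differences of -6.51, -4.91, -6.39 and -4.09 points and WT differences of 13.4, 13.7, 12 and 11.7 points. Promoter windows of neighbouring genes can share reads, as those of Sgce and Peg10 may, so these are not counted as separate cases. For Sgce the pairs differed by -19.9 points (SE 3.16, adjusted p 1.19e-06) and for Nnat by -18.6 points (SE 3.22, adjusted p 1.47e-05).

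Among genes of folate uptake, 0 of 7 promoters and 0 of 7 gene bodies were called. Summed reads called 0.557% of all coding promoters higher and 0.895% lower, and 27 of 20266 coding gene bodies higher and 54 lower. In a list of 7 these shares also give about 0 calls. Their median CpG-matched promoter difference was 2.28 points, beside 0.268 points over all 20122 coding promoters, and 6 of 7 were above 0, beside 54.3% of coding promoters. Slc46a1, the proton-coupled folate transporter, had 39.4% in KO FA30 and 29.7% in KO FA3, and 30.3% and 34.2% in WT. Its summed difference of 9.63 points had a Fisher adjusted p of 0.0498 and missed the 10-point threshold, and its matched difference was 4.18 points with an interval of -0.480 to 8.84. The reduced folate carrier Slc19a1 had 33.5% and 35.3%, and the mitochondrial carrier Slc25a32 6.77% and 4.88%. The folate receptor genes Folr1 and Folr2 had 91.7% and 86.7%, and 88.3% and 92.3%. The exporter gene Abcg2 had 77.7% and 73.8%, and Lrp2 1.36% and 1.46%.

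The enzymes that use folate and methyl groups were not called either, in lists so small that the shares over all coding promoters on summed reads (0.557% higher and 0.895% lower) also give about 0 calls. Promoters called by either test numbered 0 of 14 in the cytosolic folate cycle (median matched difference 0.908 points), 0 of 12 in the mitochondrial folate and glycine cleavage list (-0.0805), 0 of 15 in the methionine cycle (0.415) and 0 of 27 in phospholipid synthesis (0.624). Mat1a, the liver form of methionine adenosyltransferase, was the lowest of the methionine cycle at -7.14 points and Pemt, which methylates phosphatidylethanolamine, the highest at 3.52. Among 16 writers and erasers of DNA methylation 0 were likewise called, beside the same shares, and the median was -0.364 points. Dnmt3l, the cofactor of de novo methyltransferases, had 79.6% in KO FA30 and 89.5% in KO FA3 with a matched difference of -11.5 points, which missed the threshold at a Mantel-Haenszel adjusted p of 0.0881. Tet2 had 9.50% and 7.34% and Tet3 85.5% and 86.2%.

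Promoters of neural tube and brain patterning genes were mostly unmethylated in both KO libraries. Of 37 genes of cranial neural tube closure 0 were called, with median levels of 6.34% and 5.52% and matched differences from -8.30 points (Marcksl1) to 3.90 (Sall2). Brain patterning homeobox genes had medians of 2.30% and 1.74% over 48 promoters, Hox genes 4.32% and 4.21% over 39, and none was called. On summed reads 0.557% of all coding promoters were higher and 0.895% lower. Of 23 planar cell polarity genes, the Wnt5a receptor gene Ror2 was called higher on summed reads (27.8% and 17.1%), with a matched difference of 2.17 points. Of 19 Sonic hedgehog pathway genes, Smo, the pathway's signal transducer (21.2% and 33.6%), and Hhat, which acylates hedgehog ligands (22.3% and 34.1%), were called lower on summed reads, with matched differences of -2.45 and -1.47 points. Among 60 Wnt ligands, receptors and regulators 0 promoters were called. The body of Fzd9, a Frizzled receptor, was lower on summed reads (31.4% and 44.1%) with a matched difference of -4.31 points. Summed reads called 27 of 20266 coding gene bodies higher and 54 lower. The largest matched promoter difference of the Wnt list, 19.4 points at Lgr6, an R-spondin receptor, rested on 40 reads in each library and had an interval of 1.58 to 37.3.

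In the larger families nearly all calls rested on summed reads alone. Of 37 promoters of neurotransmitter transport and synaptic vesicle genes, Syn2, a synaptic vesicle phosphoprotein, was called higher on summed reads (60.7% and 43.6%), with a matched difference of 0.806 points. Of 360 solute carrier promoters, 3 were higher and 8 lower on summed reads, beside 0.557% and 0.895% of all coding promoters, and 0 were called by both tests. The 3 were Slc28a3 (63.1% and 46.2%), Slc38a7 (45.1% and 27.7%) and Slc22a21 (37.1% and 26.4%), with matched differences of 8.38, 7.13 and 1.40 points. The 8 were Slc30a10, Slc47a2, Slc26a2, Slc17a9, Slc27a3, Slc25a24, Slc45a1 and Slc17a5, with matched differences of 2.62, -4.96, -2.19, -6.65, -5.44, -3.50, -2.80 and 0.588 points, so that Slc30a10 and Slc17a5 changed sign. Of 91 potassium channel genes, 41 glutamate and GABA receptor genes and 67 axon guidance genes 0 were called on either measure. Foxj1, the master factor of motile cilia, was the single summed-read call among 41 forkhead genes (18.6% and 29.2%), with a matched difference of -0.00306 points. Among 57 clustered protocadherins, the promoter of Pcdhb21 was lower on summed reads (40.5% and 56.8%, matched -12.7 points). The body of Pcdhb13 fell by both tests (63.1% and 73.9%), which called 10 of 20266 coding gene bodies higher and 5 lower. The germline gene Sycp2, of the synaptonemal complex, had 71.8% and 81.8%, and its matched difference of -8.82 points was below the 10-point threshold. Of 1049 olfactory receptor promoters Olfr976 was the single one called by both tests, beside 0.0994% higher and 0.0696% lower of all coding promoters. On summed reads 2 were higher and 2 lower, and of 241 vomeronasal receptor promoters 1 and 1, beside 0.557% and 0.895% of all coding promoters. On summed reads alone the promoters of Olfr491, Olfr1425 and Vmn2r74 were called higher, and the promoters of Olfr1386 and Vmn2r101 lower. The body of Olfr1358 was also called higher on summed reads alone, 1 of 1110 olfactory receptor bodies, beside 27 of 20266 coding gene bodies. The body of Vmn1r188, a vomeronasal receptor, was called higher by the CpG-matched test alone, which called 0.0949% of all gene bodies higher.

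Of 27 imprinted promoters on the list 1 was called in the KO pair, where both tests called 0.123% of all promoters higher and 0.0817% lower. Snurf and Gm38393, named above at the imprinted Snrpn locus, are not on that list. Meg3, the maternally expressed noncoding RNA of the Dlk1-Meg3 domain, rose from 43.2% in KO FA3 to 55.0% in KO FA30 (matched 11 points, Mantel-Haenszel adjusted p 0.0248). WT had 45.2% in FA3 and 57.9% in FA30, so the Meg3 difference was of similar size in both genotypes (12.6 points in WT). The 21 imprinted promoters at 25 to 75% in KO FA3, a library of this contrast, were above 0 in 11 and below in 10 in the KO pair, with a median of 1.59 points. In the WT pair they were above 0 in 16 and below in 5, with a median of 7.01. Over all 27 on the list the median was -0.693 points in the KO pair, with 13 above 0, and 3.04 points in the WT pair. Of all coding promoters 54.3% were above 0 in the KO pair, and their medians were 0.268 points in KO and -0.307 in WT. In 27 gene bodies of the list, Nnat was lower in KO FA30 (52.1% and 64.0%) and Mcts2 higher (72.6% and 61.9%) on summed reads. Their matched differences were -9.06 and 9.07 points, under the 10-point threshold. Summed reads called 27 of 20266 coding gene bodies higher and 54 lower. In WT the Nnat body had 64.7% in FA30 and 55.8% in FA3, the opposite order, and the Mcts2 body 64.6% and 61.3%.

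The study deposited regions called between the 2 KO libraries, 139 hypermethylated and 77 hypomethylated in FA30. They were chosen on this contrast, so their KO levels are a description. Of 129 autosomal hypermethylated regions 74 had at least 3 CpGs with 5 reads in both libraries, as had 33 of 69 hypomethylated ones, and 42.6% and 52.2% could not be scored. The median region had 3.91 reads per CpG in KO FA30 and 9.71 in KO FA3 if hypermethylated, and 2.67 and 6.27 if hypomethylated, well under the library means of 13.2 and 21.2. Scored hypermethylated regions had median levels of 68.3% in KO FA30 and 27.7% in KO FA3, with 30.9% and 37.0% in WT FA30 and WT FA3. Scored hypomethylated regions had 36.7% and 78.4% in KO and 57.9% and 59.7% in WT. The hypermethylated regions were thus near their WT level in KO FA3, while for the hypomethylated ones WT lay between the 2 KO levels.

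Median lengths of the deposited regions were 231 and 206 bases, and of the 74 scored hypermethylated regions 3 lay in promoters, 14 in exons, 29 in introns and 28 between genes. For the 33 hypomethylated regions the counts were 3, 5, 17 and 8. At least 50% of the listed CpGs lay in repeats in 26 hypermethylated and 16 hypomethylated regions. The segments held 7 of the 129 hypermethylated and 2 of the 69 hypomethylated regions. With the regions called between the WT libraries they shared 1 of 129 with the WT hypermethylated set (0.775% of the KO set, 1.35% of 74) and 1 with the WT hypomethylated set (0.775%, and 1.72% of 58). The 69 KO hypomethylated regions overlapped 0 WT diet regions.

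The named regions lay in introns or between genes. A region in an intron of Foxp1, a forkhead transcription factor (chr6:99014065-99014204), had 62.5% in KO FA30 and 22.0% in KO FA3, with 12.4% and 18.6% in WT. A region near Tfpi on chromosome 2 (chr2:84505220-84505601), whose listed CpGs all lie in repeats and which had 30.9% and 34.9% in WT, had 69.2% and 12%. Regions near Galc, the lysosomal galactosylceramidase, and in AU040320 had 50.0% and 9.49%, and 67.2% and 24.1%, with 29.5% and 12.7%, and 37.3% and 43.9%, in WT. One near Gm12830 had 93.8% and 49.5%, with 66.7% and 37% in WT. Of the losses, a region in an intron of the imprinted gene Gnas, which encodes the stimulatory G protein (chr2:174295140-174295440), had 20.2% and 72.1%, with 35.0% and 69.5% in WT. Introns of Pip4k2b, a phosphoinositide kinase, and Tenm4, a teneurin, had 36.7% and 84.9%, and 52.5% and 98.9%, with 58.8% and 74.2%, and 77.3% and 79.5%, in WT. The last 2 were a region near Fam241a (38.2% and 85.3%, with 58.8% and 80% in WT) and an intron of Myo3b (34.0% and 89.9%, with 74.2% and 57% in WT), which lies in the chromosome 2 segment. The WT values at Fam241a rest on 17 and 20 reads, those at Gm12830 on 21 and 27 and those at Tenm4 on 22 and 44, so no order is read from them.

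**Figure D5:**
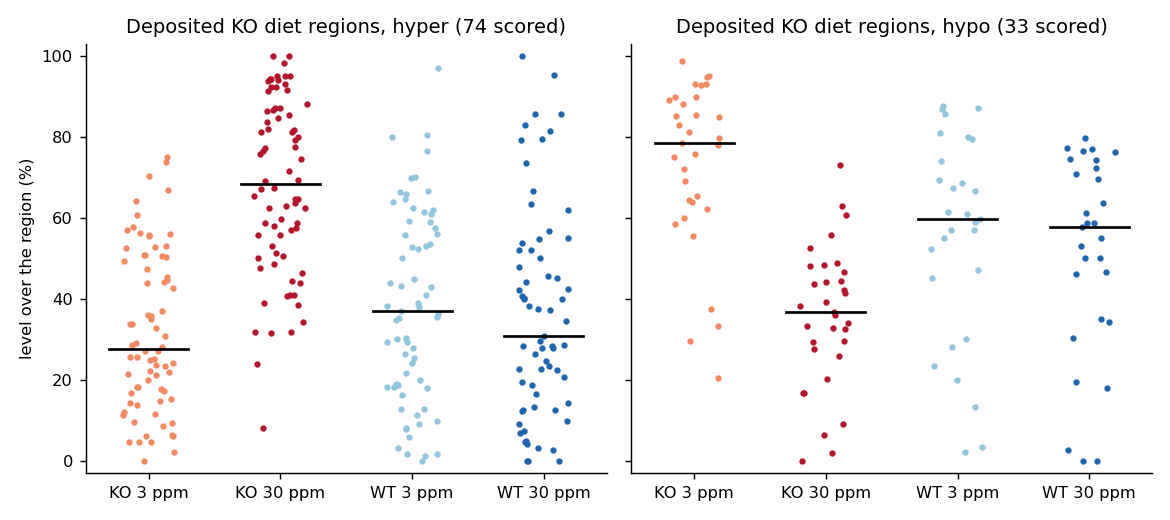
Level in percent over each deposited KO diet region (y axis) in the 4 libraries (x axis), 74 hypermethylated regions on the left and 33 hypomethylated on the right, each point a region and each bar the median. The KO medians are 27.7 and 68.3% in hypermethylated regions and 78.4 and 36.7% in hypomethylated ones at 3 and 30 ppm, while the WT medians lie at 37.0 and 30.9%, and at 59.7 and 57.9%.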

How the data were processed

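WGBS of 4 single E11.5 brains (Tet1 KO and WT, 30 and 3 ppm folic acid) was used. Per the labels and the study's methods, the authors trimmed reads (Trim Galore 0.6.10), aligned them to mm10 (GRCm38.p6) and called CpGs with Bismark 0.23.1 after removing duplicates, with both strands merged. The deposited files give, for each CpG, the methylated fraction and the read count, from which methylated reads were rebuilt. Deposited positions were counted from 0 and were moved to count from 1; all 19901887 listed CpGs then fell on a reference CG. The deposited KO and WT diet regions (called by the authors with DSS between single libraries) were used only as coordinates, and the regions called between genotypes were not used here.

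CpGs with at least 5 reads in both libraries were kept. Reads were summed over promoters (1 kb on each side of the gene start, GENCODE vM21), gene bodies and 1 kb tiles with at least 3 CpGs, and compared with two-sided Fisher's exact tests and Benjamini-Hochberg adjustment (adjusted p under 0.05 and at least 10 points). The CpG-matched Mantel-Haenszel test, calls by both tests and the 2 left-out segments were added after the data were seen. Named promoters were the 10 largest coding gains and losses called on summed reads with at least 5 CpGs and 50 reads in each library; named bodies (at least 20 CpGs), tiles (at least 10 CpGs) and deposited regions (at least 5 CpGs and 50 reads) were the 5 largest each way. From lists, called members, all folate carriers and some of the extremes were named. Genes called by both tests, and those named in the genotype comparison, were named after their values were seen. The members and lists were chosen with earlier results of these data known. The depth averaged 13.2 to 21.2 reads per listed CpG. The tests were tried on simulated data. Python 3.11.15, NumPy 2.4.6, pandas 2.3.3, SciPy 1.17.1, numba 0.67.0 and matplotlib 3.10.9 were used. The neural marker list as a whole is not reported here.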

Additional observations from a re-analysis of the deposited data

Results flagged for a closer look

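The diet difference pointed opposite ways in the 2 genotypes over the autosomes, at 0.651 points in the KO pair and -0.647 points in the WT pair, with all 19 autosomes on the same side within each pair. With 1 embryo per group this difference between the pairs was not tested.

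At 11 named promoters the diet difference of the KO pair and that of the WT pair differed by the Wald test and by the CpG-matched test. The windows of Sgce and Peg10 among them may share reads, so the 11 are not all separate cases. The KO difference exceeded the WT difference by 21.2 points at H2-T23, 20.6 at Cnpy1, 20.3 at Fgf10, 16.2 at Galnt18, 16.0 at Usp16 and 15.4 at Ch25h. It was lower than the WT difference, by the KO minus WT value, at Sgce (-19.9 points), Nnat (-18.6), Peg13 (-18.3), Sec14l4 (-18.1) and Peg10 (-15.8). These tests compare the reads of 4 embryos.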

How the results depend on the processing

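No paired analysis was possible because each group holds 1 library, and for the same reason no library could be left out. Promoter calls on summed reads (386) became 85 with 10 reads per CpG, 177 after thinning the deeper library to the overall depth of the other (123 gains and 54 losses, against 163 and 223), 16 with test statistics scaled to their robust spread, 12 at 20 points, 86 CpG-matched (55 gains and 31 losses), 60 by both tests and 59 by both tests without the segments. Gene body calls (133) became 50 with 10 reads, 206 with no read minimum, 19 with the robust spread, 2 at 20 points, 37 CpG-matched, and 30 by both tests with or without the segments. Tile calls (1585) became 844 with 10 reads, 581 thinned, 281 with the robust spread, 555 at 20 points and 804 by both tests with the adjustment redone without the segments. The autosomal difference of 0.651 points became 0.698 with 10 reads, 0.635 with no minimum, 0.672 over CpGs read in all 4 libraries and 0.623 as a share of reads. The 391 promoters at which the diet differences of the KO and WT embryos differed became 53 with 10 reads, 809 with no minimum, 139 thinned, 1295 with 2.5 kb on each side, 151 CpG-matched, 88 by both tests and 81 without high-depth repeats. Zfp282 turned from a loss to 0.0373 points by the mean of CpG levels, 1.04 with 10 reads and 0.454 CpG-matched, and Sys1 to 0.832 with 10 reads. Of the 20 promoters named by size, 17 could be tested with 10 reads, where 14 lost their call, those 2 turned and 1 (Pla2g1b) kept it, at differences that often stayed as large (Olfr491 18.2 points, Vmn2r101 -19.7), and 17 of the 20 lost it with wider promoters. Other alternatives left total counts within 1.5 times, though not always gains and losses taken singly. The cause was not tested, beyond fewer CpGs or reads under the stricter settings. At 281 and 455 reads in the median promoter, small differences were not detectable.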
